A study of Mus musculus with 48 samples.

Results

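Livers of mice given the oligonucleotide LX-A1656 were compared with livers of mice given PBS, the vehicle, with both groups sampled at 168 h. The groups were taken from the treatment and time in the sample labels, and they hold 8 of the 48 libraries of the series, 4 a group. All 23930 genes of the deposited count table were considered, and 12672 had enough reads to be tested. The series compared 3 modified gapmers directed at Scarb1, called LX-A1656, LX-A3928 and LX-A2003, with PBS at days 1, 3 and 7 after dosing began, which the sample names give as 24 h, 72 h and 168 h. The groups used below are PBS and each of the 3 gapmers at 168 h, and PBS and LX-A1656 at 72 h, with 4 libraries in each. Strain, genotype, sex, age, dose, number of doses and oligonucleotide sequences were not given in the sources used here. Whether the libraries of a group are from different animals is not stated in the labels, and the spread that p-values measure may therefore be technical. The Ion AmpliSeq kit reads a chosen stretch of each transcript, so levels are not compared between genes.

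A gapmer is a short strand with a DNA centre and chemically modified ends. It pairs with its target RNA and recruits RNase H, a nuclease that cuts the RNA strand of an RNA-DNA hybrid. The liver takes up much of an injected gapmer, in part through scavenger receptors on sinusoidal endothelial cells, and the hepatocyte is the usual target cell. Hepatocytes make plasma proteins, bile acids and enzymes that clear foreign compounds. Injured hepatocytes can lose these products and gain genes of fetal liver, of other epithelia and of stress responses, while macrophages and matrix-forming stellate cells may gather or be activated.

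Scarb1, the target, encodes a receptor that takes up cholesterol from HDL, and it lies on chromosome 5 from 125277087 to 125341094 on the minus strand (GENCODE M21, GRCm38). In the PBS libraries Scarb1 was read at 362, 249, 409.7 and 259 CPM (counts scaled to library size, here with TMM factors). In the LX-A1656 libraries it was read at 18.5, 11.8, 14.8 and 20.2 CPM. No LX-A1656 library reached the lowest PBS library. The mean went from 319.7 ± 78.8 to 16.3 ± 3.75 CPM (SD, n = 4 libraries each), which is 5.10% of PBS, and the log2 fold change was -4.30 ± 0.239 (SE; adjusted p = 3.81e-20). The exact two-sided permutation test on the 8 values gave p = 0.0286, the smallest p that 4 against 4 can give. Where the fragment read by the kit lies relative to the oligonucleotide site was not given in the sources used here.

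Of the genes tested, 8092 (63.9%) had an adjusted p under 0.05 and are called changed, 4326 of them higher (34.1%) and 3766 lower (29.7%) with LX-A1656. At least a 2-fold change was called for 2931 higher genes (23.1%) and 2212 lower genes (17.5%). Every adjusted p here comes from edgeR (quasi-likelihood F test, Benjamini-Hochberg over the genes tested), and each ± beside a fold change is an SE on the log2 scale. Library totals ran from 8239431 to 10167659 counts with PBS and from 10277000 to 13216851 with LX-A1656. Each PBS library held 13479 to 14152 genes with a count and each LX-A1656 library 15867 to 16264. Every LX-A1656 library was thus also the deeper one, and the part of depth in the genes detected was not tested. The median log2 fold change was 0.10 over all genes tested and 0.56 when libraries were scaled by their totals alone, which gave 6469 higher and 2303 lower genes, so directions below are relative to the TMM scaling. Neat1, a nuclear noncoding RNA named here after its values were seen, split the libraries across groups, at 41.7, 693, 196 and 736 CPM in PBS libraries and 753, 541, 574 and 108 in LX-A1656 libraries. Without the 3 libraries lowest in Neat1, PBS replicates 1 and 3 and LX-A1656 replicate 4, 3733 genes were higher and 3390 lower. In a bulk sample fewer cells of a type and less RNA per cell cannot be told apart, and this holds for every result below.

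For each list below with no member called in a direction against PBS by edgeR, the count at an unadjusted p under 0.05 was also 0, and so was that by DESeq2, except for 1 endoplasmic reticulum chaperone called higher.

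The labelled tissue was checked against hepatocyte, muscle, fat and pancreas genes. The summed level of the hepatocyte list, which holds albumin and other secreted proteins, was 100592 to 127379 CPM in PBS libraries and 64568 to 91069 CPM in LX-A1656 libraries. The summed level of adipose, muscle and pancreas markers was 79.1 to 112 and 59.5 to 78.9 CPM.

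**Figure D1:**
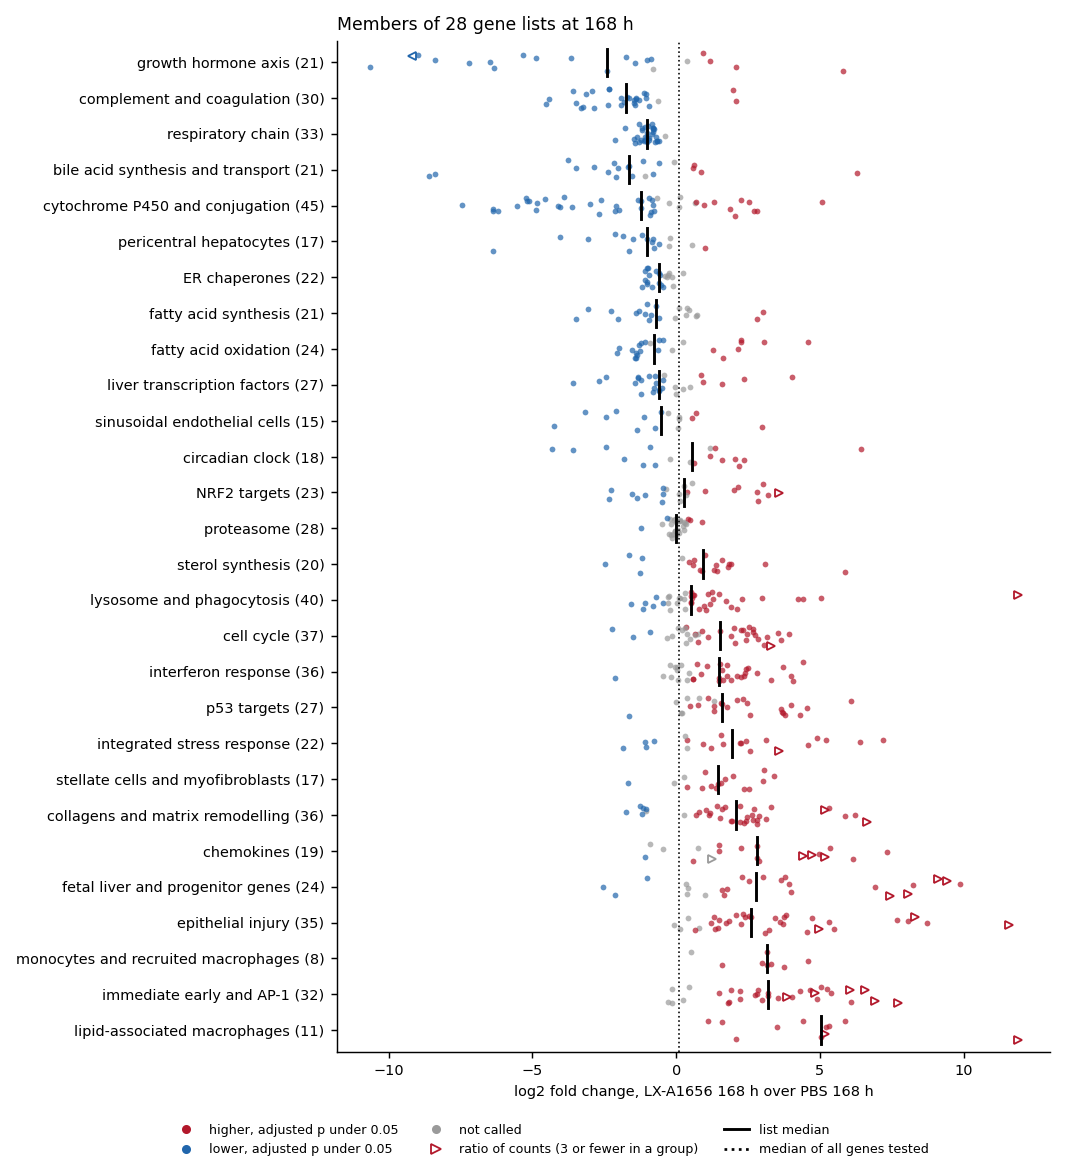
Each point is the log2 fold change of a tested member of a gene list, LX-A1656 168 h over PBS 168 h, with the list size in brackets; colours mark the adjusted p and direction, open triangles are ratios of counts where a group had 3 or fewer counts (0 counts set to a floor of 3), black bars are list medians and the dotted line is the median of all genes tested. The growth hormone axis has the lowest of these medians (-2.39) and the lipid-associated macrophage markers the highest (5.02), while the proteasome sits at -0.01.

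The genes with the lowest fold changes were mostly genes of hepatocytes, and several are known as male-typical genes controlled by growth hormone. Hsd3b5, a steroid dehydrogenase of male liver, was read at 711, 683, 241 and 718 CPM in PBS libraries and 0.297, 0.299, 0.467 and 0.322 in LX-A1656 libraries. It fell by 10.67 ± 0.630 on the log2 scale (adjusted p = 2.42e-18), from 19701 counts in the PBS group to 21. Car3, the cytosolic carbonic anhydrase of liver and muscle, was read at 15517, 13365, 13534 and 13344 CPM with PBS. Its LX-A1656 libraries held 16.6, 8.78, 11.3 and 8.37 CPM, and it fell by 10.27 ± 0.282 (adjusted p = 6.29e-31). PBS replicate 3 was the lowest PBS library for Hsd3b5, yet every PBS library lay far above every LX-A1656 library for both genes. Others at this end were the organic anion carrier gene Slco1a1 (-8.38 ± 0.481), the bile acid enzyme gene Cyp7b1 (-8.60 ± 0.398), the sulfotransferase gene Sult2a8 (-9.01 ± 0.476), the major urinary protein gene Mup21 (-8.99 ± 0.572), the carboxylesterase gene Ces1e (-8.15 ± 0.287), the fatty acid elongase gene Elovl3 (-7.22 ± 0.450), Cyp2c54 (-7.45 ± 0.506) and the solute carrier gene Slc22a30 (-7.34 ± 0.400). Also here were Immp2l, which encodes a subunit of a mitochondrial inner membrane peptidase (-7.23 ± 0.430), the pseudogene Serpina4-ps1 (-7.21 ± 0.990), and 1500017E21Rik (-8.34 ± 0.591). LOC108167326 had 1251 counts in the PBS group and 1 in the LX-A1656 group, so that PBS was 2271-fold (95% interval 407 to 89789) higher by the ratio of counts. Dio1, which makes active thyroid hormone, had 501 counts in the PBS group and 3 in the LX-A1656 group, a ratio of 303-fold (95% interval 103 to 1475). For Mup, Cyp2, Ces, Sult and Gst genes, how the counting assigned reads between near copies could not be checked.

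In the growth hormone axis 15 of 21 tested genes fell and 4 rose, against 29.7% and 34.1% of all genes. The list median was -2.39. Growth hormone acts on hepatocytes through its receptor and STAT5 to drive IGF1 and the male-typical genes. Ghr, the receptor, was read at 699, 771, 778 and 616 CPM in PBS libraries and 9.64, 6.15, 10.4 and 5.47 in LX-A1656 libraries, and fell by 6.49 ± 0.302 (adjusted p = 8.32e-23). Igfals, whose product holds IGF1 in the circulation, fell by 5.32 ± 0.320, and Cyp4a12a, a male-typical fatty acid hydroxylase gene, fell by 6.35 ± 0.368. The members that rose were 4. Igfbp1, the gene of an IGF-binding protein that fasting and stress raise, was read at 28.3, 25.3, 32.0 and 30.0 CPM with PBS and 1115, 1821, 1737 and 1812 with LX-A1656 and rose by 5.81 ± 0.408 (adjusted p = 3.40e-16). Mup20 rose by 1.16 ± 0.285, Cux2, a female-typical liver regulator, by 2.08 ± 0.618, and the receptor-bound kinase gene Jak2 by 0.92 ± 0.349, a call lost without LX-A1656 replicate 2 or PBS replicate 1 or 3. Socs2, a feedback inhibitor of the receptor (-0.81 ± 0.667), and Igfbp3 (0.39 ± 0.227) were not called.

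Genes that clear foreign compounds mostly fell, with 30 of 45 lower and 10 higher. Cyp2c29 was read at 2663, 2334, 2069 and 2538 CPM in PBS libraries and 22.6, 44.9, 24.8 and 24.8 in LX-A1656 libraries, and fell by 6.36 ± 0.280 (adjusted p = 1.30e-23). Cyp1a2 fell by 4.06 ± 0.175, Cyp2f2 fell by 4.83 ± 0.250, and the carboxylesterase genes Ces1d (-6.20 ± 0.197), Ces2a (-5.55 ± 0.214) and Ces3a (-4.57 ± 0.226) fell. Members that rose were Por, the reductase that passes electrons to these enzymes (2.72 ± 0.293), Ahr, the dioxin receptor (1.88 ± 0.156), Cyp2a5 (2.06 ± 0.282) and Cyp3a16 (5.09 ± 0.770). Cyp2d22 (-0.24 ± 0.176) was not called.

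Markers of the pericentral zone, the hepatocytes around the central vein that depend on Wnt signals, fell in 13 of 17 cases and rose in 1. Glul, glutamine synthetase, went from 366 ± 85.9 to 118 ± 24.5 CPM and fell by 1.63 ± 0.163. Rgn, the calcium-binding protein gene regucalcin, fell by 3.07 ± 0.279. Gulo, the vitamin C synthesis enzyme, fell by 1.86 ± 0.171, and the receptor gene Lgr5 fell by 2.15 ± 0.315. Oat, ornithine aminotransferase, rose by 1.02 ± 0.218, with libraries that overlapped between groups, and the Wnt target gene Axin2 (-0.27 ± 0.225) was not called. Periportal markers were divided, with 6 of 12 lower and 3 higher, or 4 and 5 when scaled by totals alone. Of all genes 29.7% were lower and 34.1% higher. Hal, histidine ammonia-lyase, fell by 3.57 ± 0.211 and Pigr, the receptor that carries IgA into bile, fell by 2.28 ± 0.229. Cdh1, E-cadherin, rose by 2.92 ± 0.201. Pck1, the gluconeogenic enzyme gene, rose by 1.27 ± 0.500, with libraries that overlapped and a call lost without LX-A1656 replicate 3 or PBS replicate 1, 2 or 4, while the urea cycle genes Cps1 (-0.15 ± 0.161) and Arg1 (0.19 ± 0.288) were not called.

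Of 30 complement and coagulation genes, 27 fell and 2 rose. Mbl1, a mannose-binding lectin that starts complement activation, was read at 439, 599, 535 and 605 CPM with PBS and 26.6, 21.0, 27.9 and 19.0 with LX-A1656, and fell by 4.53 ± 0.259 (adjusted p = 8.99e-20). Its partner protease gene Masp2 fell by 2.34 ± 0.125, the terminal complement gene C8g fell by 3.14 ± 0.208, the clotting factor genes F10 (-2.36 ± 0.132) and F7 (-2.33 ± 0.133) fell, and Proc, which encodes the anticoagulant protein C, fell by 1.63 ± 0.102. The members that rose were C1qb (1.99 ± 0.231) and C1qc (2.06 ± 0.396), which macrophages make rather than hepatocytes. Factor IX gene F9 (-0.64 ± 0.407) was not called. Among other secreted and metabolic products of hepatocytes 19 of 31 fell and 5 rose, and scaling by totals alone gave 14 and 9. Gys2, liver glycogen synthase, fell by 2.49 ± 0.247. Mat1a, which makes the methyl donor of the cell (1.00 ± 0.202), and Tat, a tyrosine-degrading enzyme that glucocorticoids raise (1.38 ± 0.237), were higher. The number of higher genes in this list was 3 without LX-A1656 replicate 3, and also without PBS replicate 1, 2 or 4.

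Among glycolytic isoenzymes some liver forms fell, such as Pklr, the liver pyruvate kinase (-1.46 ± 0.207), and Slc2a2, the hepatocyte glucose carrier (-2.82 ± 0.169). Some forms used by other cells rose, such as Pkm, the muscle-type pyruvate kinase, which was read at 38.6, 23.8, 37.8 and 23.9 CPM with PBS and 410.2, 348, 324 and 529 with LX-A1656 and rose by 3.70 ± 0.201 (adjusted p = 1.78e-20). Slc2a1, the widespread glucose carrier, rose by 2.39 ± 0.252 and the platelet-type phosphofructokinase gene Pfkp by 2.23 ± 0.270. The list as a whole had 15 higher and 7 lower of 23. The isoenzymes did not divide cleanly, since Pfkm, the muscle phosphofructokinase (-1.37 ± 0.146), fell, and Gpi1 (0.12 ± 0.154) was not called.

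**Figure D2:**
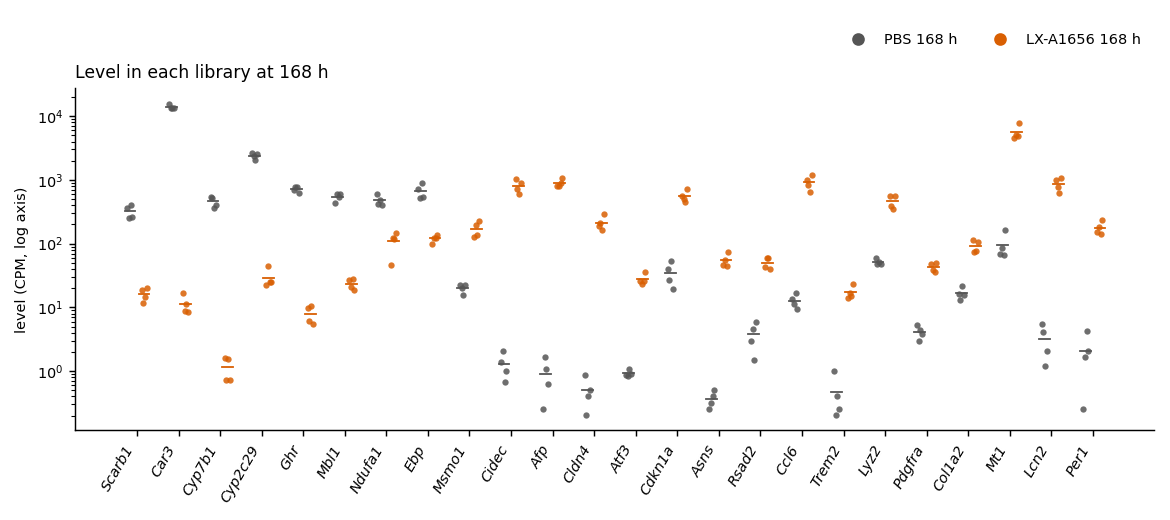
Level in each library, in CPM on a log axis, for 24 genes; each gene has 4 PBS points (grey) and 4 LX-A1656 points (orange), with a bar at each mean. The 4 LX-A1656 points of each gene lie beyond the 4 PBS points, below them for Scarb1 through Ebp and above them from Msmo1 on.

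Respiratory chain subunits were lower: 32 of 33 fell and none was called higher, also with totals alone, which gave 22 lower. Their changes were modest, with a median of -1.01, and 17 of them reached a 2-fold fall. Ndufa1, a complex I subunit gene, was read at 605, 422, 475 and 399.5 CPM with PBS and 46.4, 123, 119 and 146 with LX-A1656, and fell by 2.13 ± 0.245. Cyc1, of complex III, fell by 1.42 ± 0.172, Cox5b, of cytochrome c oxidase, fell by 1.31 ± 0.156, and Atp5a1 (-1.10 ± 0.0977) and Atp5o (-1.48 ± 0.198), of ATP synthase, fell. Cox6c (-0.38 ± 0.310) was not called. Proteasome subunits gave a contrast, since 23 of 28 were not called; 3 rose, among them Psmd8 (0.91 ± 0.131), and 2 fell. With totals alone 19 proteasome genes rose, and without LX-A1656 replicate 3 or PBS replicate 1 there were 5.

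Lipid genes moved in several directions, and the enzymes of cholesterol synthesis were mostly higher: 15 of 20 rose and 4 fell. Sqle, squalene epoxidase, was read at 1.01, 1.24, 0.538 and 1.78 CPM in PBS libraries and 76.8, 78.2, 51.4 and 68.1 in LX-A1656 libraries, and rose by 5.88 ± 0.349 (adjusted p = 3.73e-19). Msmo1, the sterol methyl oxidase gene, rose by 3.08 ± 0.297, Lss, lanosterol synthase, by 1.90 ± 0.217, and the sterol reductase gene Hsd17b7 by 1.81 ± 0.143. The 4 that fell include later steps of the pathway. Ebp, sterol isomerase, was read at 718, 511, 896 and 532 CPM with PBS and 99.6, 124, 123 and 137 with LX-A1656 and fell by 2.46 ± 0.183 (adjusted p = 7.28e-16). Sc5d, lathosterol oxidase, fell by 1.64 ± 0.197, the sterol reductase gene Tm7sf2 fell by 1.18 ± 0.167 and Stard4, a carrier of cholesterol within the cell, fell by 1.25 ± 0.204.

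Genes that move cholesterol in lipoproteins were divided, 12 higher and 13 lower of 28, or 15 and 9 with totals alone. Of all genes 34.1% were higher and 29.7% lower. Besides Scarb1, Lipc, the hepatic lipase that remodels HDL, was read at 378, 312, 304 and 319 CPM with PBS and 11.6, 8.90, 12.5 and 9.98 with LX-A1656, and fell by 4.93 ± 0.202. Apoa2, an HDL protein, fell by 3.07 ± 0.222 and Apob, the protein of LDL and VLDL, fell by 1.80 ± 0.164. Among genes of cholesterol export and storage the transporter gene Abcg1 rose by 2.35 ± 0.209 and Soat1, which esterifies cholesterol for storage, by 2.55 ± 0.239, while Abca1, the transporter that loads HDL and is named here after its values were seen, fell by 0.71 ± 0.164 (not called with totals alone). Mttp, which loads lipid on Apob protein, rose by 1.14 ± 0.141. Abcg5, which sends sterols into bile (-0.07 ± 0.187), was not called.

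Of 21 bile acid genes 15 fell and 4 rose, or 2 rose without the 3 libraries low in Neat1. Abcb11, the pump that exports bile salts into bile, was read at 421, 649.5, 460.2 and 623 CPM with PBS and 38.4, 34.4, 50.6 and 34.8 with LX-A1656 and fell by 3.77 ± 0.235 (adjusted p = 1.80e-18). Slc10a1, which brings bile salts in from blood, fell by 2.87 ± 0.212 and Slco1b2, another uptake carrier, fell by 3.47 ± 0.272. Slco1a4, a related carrier, rose by 6.29 ± 0.479, and the export pump genes Abcb4 (0.61 ± 0.174) and Abcc2 (0.60 ± 0.173) rose with libraries that overlapped between groups, and Abcc2 was not called without the 3 libraries low in Neat1. Cyp7a1, the rate-limiting enzyme of bile acid synthesis, was read at 6.95 ± 0.818 CPM with PBS and 3.13 ± 3.95 with LX-A1656. It was not called (-1.09 ± 0.644), except without LX-A1656 replicate 3, when it fell.

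Fatty acid synthesis genes fell in 12 of 21 cases and rose in 2, or in 10 and 9 with totals alone and in 12 and 4 when only the 8 libraries were fitted. Agpat2, which builds phosphatidic acid, fell by 3.05 ± 0.187, the elongase gene Elovl5 fell by 2.26 ± 0.172 and Mlxipl, the glucose-responsive factor ChREBP, fell by 3.48 ± 0.306. Lpin1, a phosphatidate phosphatase gene, rose by 2.82 ± 0.253 and the desaturase gene Scd2 by 3.03 ± 0.317, while fatty acid synthase itself, Fasn (0.69 ± 0.338), was not called. For oxidation, 14 of 24 genes fell and 7 rose. Enzymes of the mitochondrial cycle were on the falling side, with Hadha at -1.41 ± 0.121 and Acadvl at -1.21 ± 0.118. Gate-keeping and fasting genes were on the rising side, with Cpt1a, which admits fatty acids to mitochondria, at 1.26 ± 0.141, Pdk4, which spares glucose, at 3.05 ± 0.292, and the lipase inhibitor gene Angptl4 at 2.24 ± 0.283.

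Among 13 lipid droplet genes 7 rose and 5 fell. Cidec, which fuses droplets in adipocytes and fatty liver, was read at 1.38, 2.07, 0.673 and 1.02 CPM in PBS libraries and 1014, 725, 611 and 891 in LX-A1656 libraries, a rise of 9.25 ± 0.415 (adjusted p = 6.44e-23). Every LX-A1656 library lay far above every PBS library. Cidea, its paralog, was 116-fold (95% interval 39.6 to 565) higher by the ratio of counts, and Hilpda, an inhibitor of the main droplet lipase, rose by 4.66 ± 0.274. Pnpla2, that lipase, rose by 1.97 ± 0.188, while its inhibitor gene G0s2 fell by 2.92 ± 0.445 and Mgll, which completes lipid breakdown, fell by 2.58 ± 0.234.

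Liver transcription factors mostly fell, with 17 of 27 lower and 5 higher, or 9 and 8 with totals alone. Cebpa, which maintains the mature hepatocyte, was read at 833, 419, 898 and 401 CPM with PBS and 106, 90.1, 89.7 and 186 with LX-A1656, and fell by 2.44 ± 0.251. Nr1i3, the drug-sensing receptor CAR, fell by 2.67 ± 0.197 and Prox1 fell by 1.45 ± 0.169. The stress-induced family members Cebpb and Cebpd rose by 0.92 ± 0.202 and 4.02 ± 0.556. Foxa3 (-0.42 ± 0.227) was not called.

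The other end of the comparison held genes nearly silent in PBS livers. Afp, alpha-fetoprotein, the albumin-like protein of fetal liver, was read at 0.251, 1.66, 1.08 and 0.635 CPM with PBS and 804, 813, 885 and 1055 with LX-A1656, a rise of 9.88 ± 0.364 (adjusted p = 2.76e-26). H19, an imprinted noncoding RNA of fetal liver, had 3 counts in the PBS group and 3707 in the LX-A1656 group, a ratio of 681-fold (95% interval 233 to 3301). Fetal and progenitor genes rose in 17 of 24 cases, with a median of 2.78, and fell in 3. Gpc3, a surface proteoglycan of fetal and malignant hepatocytes, rose by 3.99 ± 0.345 and Ly6d by 8.23 ± 0.471. Aldh1a1, a retinal dehydrogenase gene, fell by 2.55 ± 0.242, Sox9, a regulator of bile duct cells, fell by 1.00 ± 0.242 (not called with totals alone), Lgr5 also fell, and the bile duct keratin gene Krt19 (0.42 ± 0.398) was not called.

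Keratin genes of gut and skin, Krt20 and Krt5, were among the 15 genes with the highest fold changes. Gpnmb, a membrane protein of lipid-laden macrophages and injured cells, had 1 count with PBS and 6891 with LX-A1656, a ratio of 3795-fold (95% interval 681 to 149923). Krt20, an intestinal keratin, was 3052-fold (95% interval 845 to 25202) higher by the ratio of counts. Krt5, a keratin of basal skin cells, had 0 PBS counts and was at least 314-fold higher against a floor of 3 counts over the group. The same bound was at least 556-fold for Asb11, a ubiquitin ligase adaptor gene, and at least 210.2-fold for Fosl1, an AP-1 subunit. These intervals and bounds reflect counting error alone, because PCR copies read without molecular identifiers are not separate molecules. Other genes with 0 PBS counts were the skin genes Aloxe3 (at least 158-fold higher) and Crct1 (at least 131-fold), the peptidoglycan-binding protein gene Pglyrp3 (at least 213-fold), Lrtm2 (at least 198-fold), Tceal5 (at least 199.9-fold), the neuronal calcium channel gene Cacna1b (at least 131-fold) and the dopamine receptor gene Drd3 (at least 132-fold). Npy, a neuropeptide gene, rose by 10.17 ± 0.546, and 2010109I03Rik was 1482-fold (95% interval 266 to 58559) higher by the ratio of counts.

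The epithelial injury list, which gathers keratins, claudins, annexins and S100 proteins, had 31 of 35 genes higher and none called lower, with a median of 2.59. Cldn4, a tight junction protein of ducts, was read at 0.880, 0.207, 0.404 and 0.508 CPM in PBS libraries and 191, 211, 163 and 287 in LX-A1656 libraries, a rise of 8.73 ± 0.472 (adjusted p = 3.69e-20). Anxa2, which binds calcium and membranes, rose by 5.49 ± 0.252, Tnfrsf12a, the TWEAK receptor, by 4.74 ± 0.241, and Vim, vimentin, by 3.23 ± 0.183. Krt7 (0.79 ± 0.394) and clusterin, Clu (0.13 ± 0.167), were not called. YAP and TAZ targets, genes that respond to cell stretch and contact, rose in 15 of 24 cases, with Ctgf, a matrix-linked growth factor gene, at 3.54 ± 0.221 and tissue factor, F3, the only gene called lower, at -1.82 ± 0.257.

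Immediate early genes, which cells switch on soon after a signal, were higher at 168 h. Of 32 tested, 27 rose and none was called lower, and 26 had all 4 LX-A1656 libraries above all 4 PBS libraries, against 29.5% of all genes. Fos, an AP-1 subunit, was read at 0.754, 0.517, 1.08 and 0.508 CPM with PBS and 22.1, 27.9, 28.6 and 28.9 with LX-A1656, a rise of 5.23 ± 0.377 (adjusted p = 2.32e-16). Btg2, an antiproliferative gene, rose by 6.09 ± 0.310, Klf4 by 5.39 ± 0.288 and Gadd45b by 4.66 ± 0.336. The exceptions Ier2 (-0.28 ± 0.237), Gadd45a (0.25 ± 0.242) and Jund (0.44 ± 0.422) were not called.

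Targets of p53, the DNA damage response factor, rose in 20 of 27 cases and fell in 1. Cdkn1a, the cell cycle inhibitor p21, was read at 40.2, 26.6, 53.6 and 19.3 CPM in PBS libraries and 559, 498, 444 and 726 in LX-A1656 libraries, a rise of 4.00 ± 0.402 (adjusted p = 1.87e-11). Phlda3, an inhibitor of AKT, rose by 4.31 ± 0.451, Trp53inp1 by 3.80 ± 0.214, and the death receptor gene Tnfrsf10b by 3.71 ± 0.336. Fas, another death receptor, went the other way and fell by 1.66 ± 0.229, while Perp (0.22 ± 0.113) was not called. In the wider list of cell death genes 22 of 37 rose and 6 fell. Bid, which links death receptors to mitochondria, rose by 2.08 ± 0.181, the BH3-only gene Bcl2l11 by 2.38 ± 0.277 and the necroptosis kinase gene Ripk3 by 3.03 ± 0.375. Bik, another BH3-only gene, fell by 1.81 ± 0.228 and the pore-forming gasdermin gene Gsdmd fell by 1.01 ± 0.135.

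The integrated stress response, in which kinases that sense amino acid lack, heme lack or unfolded protein raise the factor ATF4, was higher in 16 of 22 genes and lower in 4. Asns, asparagine synthetase, was read at 0.251, 0.310, 0.404 and 0.508 CPM in PBS libraries and 45.5, 56.0, 44.4 and 74.7 in LX-A1656 libraries, a rise of 7.20 ± 0.487 (adjusted p = 3.38e-17). Nupr1, a stress-induced nuclear protein gene, rose by 6.39 ± 0.485, Atf3, a repressor downstream of ATF4, by 4.90 ± 0.260, Psat1, of serine synthesis, by 5.22 ± 0.391, and Ddit3, which encodes CHOP, by 3.14 ± 0.232. Those that fell were Atf5 (-1.85 ± 0.267), Cebpg (-1.10 ± 0.198), Shmt2 (-1.06 ± 0.221) and Chac1, a glutathione-degrading enzyme gene (-0.77 ± 0.341). The Chac1 libraries overlapped between groups, and its call was lost with totals alone, in the fit of the 8 libraries and without LX-A1656 replicate 1, 2 or 3 or PBS replicate 1 or 2. Endoplasmic reticulum chaperones, the targets of the other arms of the unfolded protein response, did not rise with them: 15 of 22 fell and none was called higher, or 8 and 1 with totals alone. Calr, calreticulin, fell by 1.18 ± 0.212, the disulfide isomerase gene Pdia4 fell by 1.07 ± 0.128, and Atf6, a sensor of that response, fell by 1.00 ± 0.160, while Manf (-0.39 ± 0.203) was not called.

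Promoters of 3 stress response genes are shown with a short element that ATF4 is known to bind. Of 9 motifs searched, 1 or 2 for a list, this one and the interferon element shown further on were chosen for display after the shares of all were seen. The windows run from 250 bases before to 50 bases after the start of the gene, from RefSeq on GRCm38.p6, and capitals mark TGATGNAA or its reverse complement (N is any base). This motif was found on either strand in 8 of 21 stress response genes with a window and in 2.93% of 9629 tested genes with a window. Among the 15 that rose it was found in 6, among the 4 that fell in 1 and among the 2 not called in 1. The windows below hold it in genes that rose, Asns and Nupr1, and in Chac1.
Asns: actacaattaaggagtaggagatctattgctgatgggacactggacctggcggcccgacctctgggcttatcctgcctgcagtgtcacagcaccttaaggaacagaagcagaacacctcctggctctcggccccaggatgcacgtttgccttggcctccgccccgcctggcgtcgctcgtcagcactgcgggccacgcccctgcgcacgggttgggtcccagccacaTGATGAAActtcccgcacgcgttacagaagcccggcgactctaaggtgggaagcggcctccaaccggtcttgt
Nupr1: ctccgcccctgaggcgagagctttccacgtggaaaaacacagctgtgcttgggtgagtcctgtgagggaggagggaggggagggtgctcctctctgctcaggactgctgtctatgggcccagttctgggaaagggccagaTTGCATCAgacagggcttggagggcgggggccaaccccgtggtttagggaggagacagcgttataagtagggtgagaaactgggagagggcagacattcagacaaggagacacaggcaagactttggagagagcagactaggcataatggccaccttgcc
Chac1: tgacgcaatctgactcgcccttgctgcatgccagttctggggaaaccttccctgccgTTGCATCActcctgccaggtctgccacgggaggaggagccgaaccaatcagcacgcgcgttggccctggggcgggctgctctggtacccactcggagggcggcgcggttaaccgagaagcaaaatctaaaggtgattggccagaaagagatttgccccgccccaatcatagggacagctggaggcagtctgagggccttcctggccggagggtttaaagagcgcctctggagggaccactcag
The windows lie at chr6:7693160-7693459, minus strand for Asns, chr7:126625421-126625720, minus strand for Nupr1 and chr2:119350992-119351291, plus strand for Chac1. The motif begins 23, 110 and 193 bases before the start, in that order. A match is a run of letters and not a measured binding site.

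Interferon-induced genes were higher in 25 of 36 cases, with a median of 1.51, and lower in 1. Rsad2, which encodes the antiviral enzyme viperin, was read at 3.02, 4.66, 1.48 and 5.97 CPM with PBS and 42.8, 60.4, 58.7 and 39.7 with LX-A1656, a rise of 3.72 ± 0.293 (adjusted p = 4.45e-15). Usp18, which dampens interferon signalling, rose by 4.05 ± 0.227, Oasl1 by 4.41 ± 0.303, Oas1a, an RNA-sensing synthetase, by 2.51 ± 0.256, and the factor gene Irf7 by 1.92 ± 0.160. Igtp, an interferon-gamma-induced GTPase gene, was read at 41.0, 32.4, 34.7 and 39.2 CPM with PBS and 7.64, 9.19, 9.98 and 6.28 with LX-A1656, and fell by 2.15 ± 0.185 (adjusted p = 7.44e-14). Cxcl9, which interferon gamma also induces (-0.47 ± 0.399), and Irf9, a subunit of the factor that type I interferon activates (-0.23 ± 0.148), were not called. Nucleic acid sensors rose in 17 of 21 cases, with the endosomal receptor genes Tlr7 at 3.14 ± 0.396 and Tlr8 at 2.77 ± 0.381 and Tmem173, which encodes STING, at 2.20 ± 0.205. The adaptor gene Mavs (-1.67 ± 0.143) and the factor gene Irf3 (-1.27 ± 0.130) fell.

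Windows of 3 interferon genes are shown in the same way, with the interferon-stimulated response element (GAAA, any 2 bases, then GAAA) or its reverse complement in capitals. It was found in 16 of 27 interferon genes with a window, against 3.76% of the 9629 genes. Of the 16 genes that rose 10 held it, of the 10 not called 5 did, and Igtp, which fell, also did. The other motifs searched, on both strands of the same windows, gave the following shares. The AP-1 element (TGANTCA) was in 1 of 25 immediate early genes and 6.71% of all genes with a window. The sterol element (TCACC then CCAC) was in 1 of 15 sterol synthesis genes and 0.789% of all. For fatty acid oxidation the cyclic AMP element (TGACG then TCA) was in 0 of 15 genes and 3.33% of all, and the PPAR element (AGGTCA, any base, AGGTCA) in 0 of 15 and 0.0312%. The antioxidant element (TGAC, any 3 bases, GC) was in 7 of 19 NRF2 targets and 16.9% of all. The HNF1 element (GTTAAT, any base, ATTAA) was in 1 of 20 hepatocyte genes and 0.0831% of all, and the C/EBP element (TTGC then GCAA) in 1 of 21 acute phase genes and 0.343%. No match says only that these letters are not in that window.
Rsad2: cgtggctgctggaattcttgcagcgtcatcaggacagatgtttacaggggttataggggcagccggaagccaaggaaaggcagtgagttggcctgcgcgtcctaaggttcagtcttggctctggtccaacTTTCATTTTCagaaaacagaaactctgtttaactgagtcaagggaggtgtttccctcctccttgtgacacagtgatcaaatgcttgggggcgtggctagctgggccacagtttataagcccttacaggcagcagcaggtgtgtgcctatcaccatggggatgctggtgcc
Oas1a: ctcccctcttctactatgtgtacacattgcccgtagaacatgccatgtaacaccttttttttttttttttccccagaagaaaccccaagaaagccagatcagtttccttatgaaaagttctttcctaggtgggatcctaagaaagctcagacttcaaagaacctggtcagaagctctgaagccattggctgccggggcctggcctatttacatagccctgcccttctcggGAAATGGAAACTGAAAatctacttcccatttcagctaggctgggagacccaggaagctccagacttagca
Igtp: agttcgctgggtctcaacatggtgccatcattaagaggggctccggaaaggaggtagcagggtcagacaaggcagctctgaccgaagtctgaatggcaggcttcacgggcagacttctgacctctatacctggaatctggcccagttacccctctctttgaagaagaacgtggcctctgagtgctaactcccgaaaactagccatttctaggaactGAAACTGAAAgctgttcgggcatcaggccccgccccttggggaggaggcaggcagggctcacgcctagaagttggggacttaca
The windows lie at chr12:26456403-26456702, minus strand for Rsad2, chr5:120907476-120907775, minus strand for Oas1a and chr11:58199306-58199605, plus strand for Igtp. The first match begins 120, 20 and 34 bases before the start, and in Oas1a it overlaps another.

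Chemokines, the proteins that call leukocytes into tissue, rose in 14 of 19 cases. Ccl2, which draws monocytes, was read at 0.251, 0.931, 0.404 and 1.90 CPM in PBS libraries and 135, 181, 110.4 and 149 in LX-A1656 libraries, a rise of 7.34 ± 0.433 (adjusted p = 5.57e-19). Ccl6 rose by 6.17 ± 0.334 and Cxcl1, which draws neutrophils, by 2.88 ± 0.321. Cxcl12, which stromal cells make at rest, fell by 1.07 ± 0.154. Cytokines and NF-kB targets rose in 17 of 23 cases and none was called lower, with the adhesion gene Vcam1 at 3.71 ± 0.189 and the feedback inhibitor gene Tnfaip3 at 3.70 ± 0.282, but Il1b (0.55 ± 0.433) was not called. Acute phase proteins, which hepatocytes secrete in inflammation, were divided, with 8 higher and 9 lower of 26. That is near the 34.1% higher and 29.7% lower of all genes. The counts were 13 and 5 with totals alone and 5 and 9 without the 3 libraries low in Neat1. Lcn2, an iron-chelator-binding protein, was read at 5.40, 4.04, 1.21 and 2.03 CPM with PBS and 1009, 783, 619.8 and 1074 with LX-A1656 and rose by 8.08 ± 0.464, Hamp, hepcidin, rose by 1.18 ± 0.296, Itih4 fell by 2.23 ± 0.168, and Serpina3n (0.20 ± 0.124) was not called.

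Markers of macrophages were higher. All 11 tested markers of lipid-associated macrophages were higher, with a summed level of 181 to 273 CPM in PBS libraries and 867 to 1217 in LX-A1656 libraries, and several of these genes are also made by injured epithelium. Trem2, the lipid-sensing receptor that defines these cells, was read at 1.01, 0.207, 0.404 and 0.254 CPM with PBS and 14.2, 16.9, 15.1 and 23.3 with LX-A1656, a rise of 5.21 ± 0.479 (adjusted p = 5.07e-13). Cd63 rose by 4.42 ± 0.212, Lgals3, galectin, by 5.31 ± 0.298, and the elastase gene Mmp12 by 5.88 ± 0.596. Monocyte and recruited macrophage markers rose in 7 of 8 cases, from a summed 103 to 132 to 701 to 1015 CPM. Lyz2, lysozyme, rose by 3.16 ± 0.179 and the integrin gene Itgam by 4.58 ± 0.356, while Cx3cr1 (0.51 ± 0.282) was not called.

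Resident Kupffer cell markers were mixed, 7 higher and 2 lower of 11. Marco, a scavenger receptor, rose by 4.14 ± 0.385 and Cd5l by 1.68 ± 0.137. Timd4, a receptor for dying cells, fell by 1.09 ± 0.232, and the lectin gene Clec4f was 112 ± 14.5 CPM with PBS and 129.7 ± 15.3 with LX-A1656 and not called (0.21 ± 0.118). Lysosome and phagocytosis genes rose in 24 of 40 cases and fell in 6, with the macrophage membrane protein gene Cd68 at 4.25 ± 0.247, the protease genes Ctss and Lgmn at 3.00 ± 0.245 and 2.28 ± 0.158, and Tfeb, a master regulator of lysosomes, at -1.16 ± 0.231.

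Of 13 neutrophil markers 7 had enough reads to be tested, and all 7 rose, or 6 without PBS replicate 4. With no filter on low counts 7 of 13 rose and 6 were not called. The summed level of the 13 markers was 24.5 to 47.9 CPM with LX-A1656, against 4.95 to 7.40 with PBS. T cell markers summed to 5.49 to 6.91 CPM with PBS and 8.53 to 12.7 with LX-A1656, and NK cell markers to 1.88 to 3.77 and 3.62 to 6.82. In each list 2 of 6 tested markers were higher, close to the 34.1% of all genes. With no filter on low counts 2 of 11 T cell and 2 of 10 NK cell markers were higher. Only 4 of 11 mast cell and basophil markers had enough reads to be tested, and 3 of them rose. Without the filter 4 of these 11 rose and 7 were not called. Tpsab1, a mast cell tryptase gene, was read at 0.251, 0.207, 0.135 and 0 CPM in PBS libraries and 187, 96.0, 73.1 and 159.8 in LX-A1656 libraries, a rise of 9.63 ± 0.658 (adjusted p = 1.09e-16). Hdc, the histamine-making enzyme of mast cells, rose by 2.91 ± 0.367, while Kit, the receptor that mast cells need, was 0.993 ± 0.370 and 1.63 ± 0.872 CPM and not called (0.70 ± 0.411).

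Sinusoidal endothelial markers were mostly lower, 8 of 15, with 3 higher, or 6 and 6 with totals alone. Dnase1l3, a secreted DNase, was read at 54.0, 55.3, 66.5 and 56.4 CPM with PBS and 1.56, 2.51, 3.39 and 4.83 with LX-A1656, and fell by 4.24 ± 0.198. Clec4g, a lectin gene, fell by 3.17 ± 0.235, Stab2, a scavenger receptor that takes up oligonucleotides, fell by 2.46 ± 0.203, and Kdr, the VEGF receptor, fell by 2.09 ± 0.192. The hyaluronan receptor gene Lyve1 rose by 2.99 ± 0.243, as did the general endothelial gene Pecam1 by 0.67 ± 0.137, while Eng (0.10 ± 0.189) was not called. Beside Stab2, the hepatocyte asialoglycoprotein receptor genes Asgr1 (-1.48 ± 0.151) and Asgr2 (-1.56 ± 0.170) fell, and Rnaseh1, the nuclease that gapmers use, was 4.31 ± 0.171 and 5.70 ± 1.11 CPM and not called (0.40 ± 0.223).

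Stellate cell and myofibroblast markers rose in 14 of 17 cases and fell in 1. Pdgfra, a growth factor receptor of fibroblasts, was read at 5.28, 3.00, 4.44 and 3.81 CPM in PBS libraries and 48.7, 38.3, 35.8 and 49.8 in LX-A1656 libraries, a rise of 3.39 ± 0.197 (adjusted p = 1.77e-19). The collagen-binding proteoglycan gene Lum rose by 3.03 ± 0.333, Cygb, cytoglobin, by 3.07 ± 0.285, and Lrat, which stores vitamin A in stellate cells, by 1.69 ± 0.228. Ngfr fell by 1.69 ± 0.391 and Reln (0.27 ± 0.199) was not called. Matrix genes rose in 29 of 36 cases, with Col1a2, of the main fibrillar collagen, going from 16.7 ± 3.64 to 92.8 ± 20.8 CPM (2.48 ± 0.226), Col6a1 at 2.80 ± 0.256 and Thbs1, thrombospondin, at 6.22 ± 0.519. Matrix genes that hepatocytes make in quantity were among the 5 that fell, with fibronectin, Fn1, at -1.25 ± 0.186 and Col18a1 at -1.14 ± 0.192. The summed level of the matrix list was 1854 to 2852 CPM with PBS and 1916 to 2584 with LX-A1656.

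Cell cycle genes rose in 24 of 37 cases and fell in 3. Ccna2, the cyclin of DNA synthesis and mitotic entry, was read at 4.40, 2.28, 0.538 and 2.67 CPM with PBS and 22.8, 28.1, 35.4 and 29.8 with LX-A1656, a rise of 3.54 ± 0.318 (adjusted p = 2.63e-13). Plk1, a mitotic kinase gene, rose by 3.63 ± 0.400, Ccnd1, cyclin D, by 2.25 ± 0.273, and Ccne1 by 3.14 ± 0.320. Tk1, thymidine kinase (-1.52 ± 0.211), and E2f8, which hepatocytes use to become polyploid (-2.23 ± 0.564), fell, and Mcm5, a replication helicase subunit (0.66 ± 0.324), was not called.

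Antioxidant genes controlled by NRF2 were divided, 9 higher and 8 lower of 23, or 14 and 5 with totals alone. The first counts are near the 34.1% higher and 29.7% lower of all genes. Nqo1 rose by 3.19 ± 0.235, Hmox1, heme oxygenase, by 2.84 ± 0.224, and Srxn1 by 3.03 ± 0.183. Gstm1, a glutathione transferase gene abundant in hepatocytes, was read at 3467, 2580.5, 3500.5 and 2581 CPM with PBS and 512, 519, 642 and 705 with LX-A1656 and fell by 2.35 ± 0.185, and Cat, catalase, fell by 2.27 ± 0.178. Mt1, a metal-binding metallothionein gene, went from 69.4, 85.1, 66.2 and 163 CPM in PBS libraries to 4536, 5132, 4862 and 7755 in LX-A1656 libraries and rose by 5.86 ± 0.667 (adjusted p = 5.36e-10). Among iron genes Id1, a target of BMP signals, rose by 4.39 ± 0.335 and Tmprss6, which restrains hepcidin, fell by 2.62 ± 0.224. Alas2, the heme synthesis enzyme of red cell precursors, fell by 3.81 ± 0.174.

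Clock genes were also divided, with 8 higher and 7 lower of 18, against 34.1% and 29.7% of all genes. Per1, a repressor of the clock that stress hormones also induce, was read at 0.251, 1.66, 4.31 and 2.03 CPM in PBS libraries and 152, 183, 141 and 232 in LX-A1656 libraries, a rise of 6.44 ± 0.546 (adjusted p = 1.58e-13). Cry2, its partner, rose by 2.04 ± 0.169 and Usp2, a deubiquitinase gene, by 2.20 ± 0.303. Npas2, an activator, fell by 4.34 ± 0.353, the repressor gene Nr1d1 fell by 2.46 ± 0.253 and the output factor gene Hlf fell by 3.58 ± 0.238, while Cry1 (-0.21 ± 0.240) was not called. The hour of the day at which the livers were collected was not given in the sources used here.

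Genes that span a long stretch of the genome fell more often. Of 272 tested genes that span over 300 kb, 57.7% fell and 14.7% rose, with a median of -1.18, while of 2884 genes under 10 kb 26.9% fell and 35.4% rose, with a median of 0.14. The intermediate bins fell in 25.5%, 29.3% and 44.9% of genes. Spans come from GENCODE M21 and were found for 95.6% of tested genes. The longest genes were also read at lower levels, with a median of 6.24 CPM over 300 kb against 12.7 under 10 kb, and the part of that difference in the result was not tested.

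**Figure D3:**
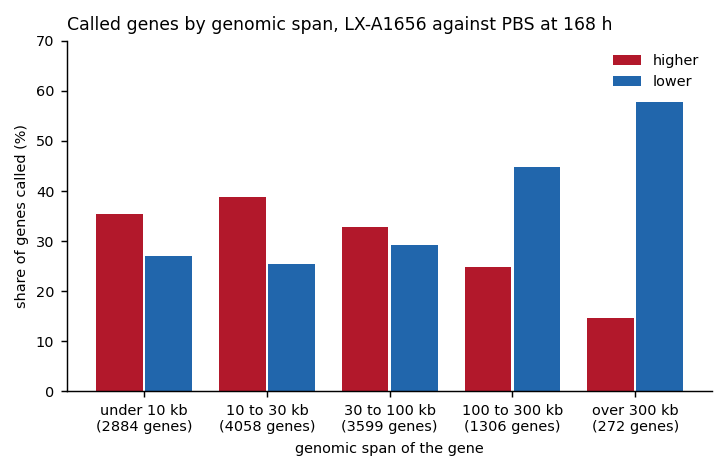
Share of tested genes called higher or lower with LX-A1656 at 168 h, in 5 bins of genomic span, with the number of genes under each bin. Lower genes rise from 26.9% under 10 kb to 57.7% over 300 kb, and higher genes go from 35.4% to 14.7%.

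LX-A1656 was set directly against the other gapmers directed at Scarb1 at the same time, and both comparisons use the same LX-A1656 libraries. Scarb1 stood at 16.3 ± 3.75 CPM for LX-A1656, 12.5 ± 1.91 for LX-A2003 and 9.32 ± 3.11 for LX-A3928. The LX-A1656 group was not called against LX-A2003 (0.38 ± 0.221; adjusted p = 0.185) and was higher than LX-A3928 by 0.79 ± 0.225 (adjusted p = 0.00392). Against LX-A2003, 4071 genes (32.1%) were called, 1752 higher (13.8%) and 2319 lower (18.3%) with LX-A1656. Against LX-A3928, 5278 genes (41.7%) were called, 2343 higher (18.5%) and 2935 lower (23.2%). When only the 8 libraries compared were fitted, 2870 genes were called against LX-A3928 and Scarb1 there had an adjusted p of 0.0624. With totals alone 3057 genes were higher and 2095 lower against LX-A3928. Doses were not given in the sources used here, so a difference between the molecules and a difference in amount cannot be told apart.

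Fam107a, a gene that stress hormones induce, stood at 18.7 ± 2.10 CPM for LX-A1656, 0.209 ± 0.195 for LX-A2003 and 0.144 ± 0.109 for LX-A3928, differences of 6.28 ± 0.513 and 6.90 ± 0.551. Mmp7, the protease matrilysin, was higher than with LX-A2003 by 4.50 ± 0.401, and Upp2, the liver uridine phosphorylase, by 4.29 ± 0.432. 2010109I03Rik was higher than with LX-A2003 by 5.91 ± 0.379 and at least 721-fold higher than with LX-A3928, where it had 0 counts. Tpsab1 was higher than with LX-A3928 by 7.48 ± 0.530, and Crct1 was 191-fold higher there by the ratio of counts (95% interval 65.1 to 929). At the low end Car3 kept 11.3 ± 3.80 CPM with LX-A1656 but 267 ± 31.4 for LX-A2003 and 761 ± 116 for LX-A3928, differences of -4.57 ± 0.223 and -6.08 ± 0.238. Slco1a1 was lower than in both (-5.03 ± 0.435 and -7.43 ± 0.466), and the LX-A3928 libraries, at 245 ± 244 CPM, overlapped the PBS libraries. Hsd3b5 (-7.68 ± 0.595) and Sult2a8 (-6.44 ± 0.438) were lower than with LX-A3928, and Cib3, a calcium-binding protein gene (-4.25 ± 0.362), and Slc22a30 (-4.07 ± 0.365) were lower than with LX-A2003.

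Cell cycle genes were lower with LX-A1656 than with the other gapmers, though higher than with PBS. None of 37 was higher than in either other gapmer group, 21 were lower than with LX-A2003 and 20 lower than with LX-A3928, the latter 10 with totals alone and 11 in the fit of the 8 libraries. By edgeR at an unadjusted p under 0.05 and by DESeq2 there were also 0 higher in both. Plk1 stood at 9.14 ± 1.86 CPM for LX-A1656, 24.5 ± 7.09 for LX-A2003 and 15.8 ± 8.33 for LX-A3928, against 0.721 ± 0.408 with PBS. Ccnd1 was lower than with LX-A2003 (-1.81 ± 0.251; adjusted p = 2.09e-07). Complement and coagulation genes were lower in 20 and 25 of 30 cases and pericentral markers in 11 and 12 of 17. NRF2 targets were lower in 12 and 10 of 23, with Gstm1 at 594 ± 94.8 CPM, 3712 ± 928 for LX-A2003 and 4698 ± 1407 for LX-A3928.

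Fetal genes were higher with LX-A1656 in 10 and 13 of 24 cases, and lower in 3 and 3. Afp stood at 78.1 ± 39.3 CPM with LX-A2003 and 20.4 ± 5.74 for LX-A3928, against 889 ± 116 with LX-A1656, differences of 3.51 ± 0.250 and 5.44 ± 0.276. Trem2 was 17.4 ± 4.14 CPM for LX-A1656, 10.8 ± 1.87 for LX-A2003 and 9.62 ± 1.49 for LX-A3928. Immediate early genes were higher in 9 and 18 of 32, and lipid-associated macrophage markers in 6 and 8 of 11. Interferon genes ran the other way, with 11 and 17 of 36 lower and 4 and 6 higher, and Cxcl9 stood at 10.3 ± 5.42 CPM with LX-A1656 but 51.0 ± 5.94 and 221 ± 224 with the others. Respiratory chain genes were lower in 18 of 33 against LX-A3928, where 23.2% of all genes were lower. Against LX-A2003 4 of 33 were lower, which is under the 18.3% of all genes. In the fits of the 8 libraries 4 and 1 were lower, with 1553 and 1804 lower among all genes tested.

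**Figure D4:**
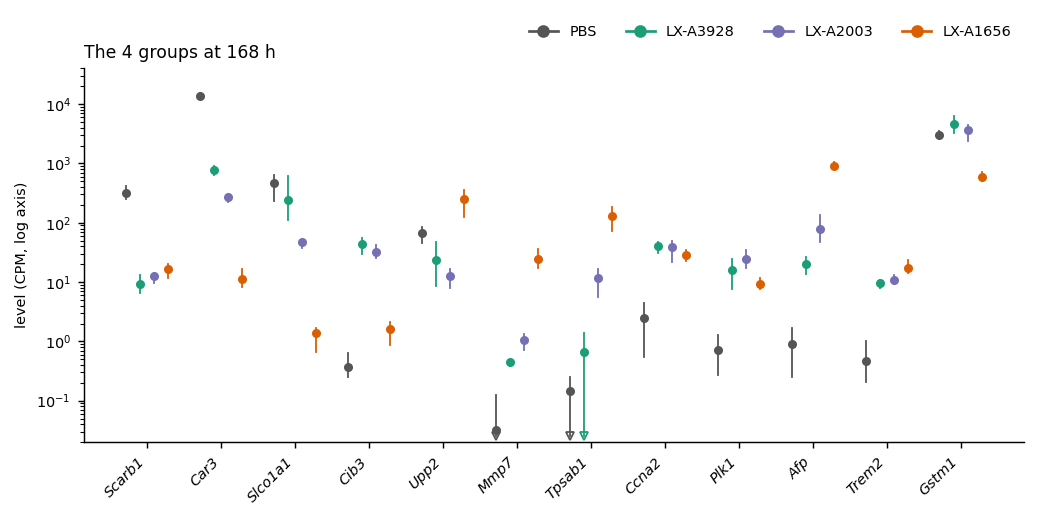
Levels at 168 h in CPM on a log axis for 12 genes; a dot is the mean of 4 libraries and a line runs from the lowest to the highest library, in PBS (grey), LX-A3928 (green), LX-A2003 (purple) and LX-A1656 (orange), and open triangles at the foot mark lines that reach values under the axis. Car3 falls in the order LX-A3928, LX-A2003, LX-A1656, while Plk1 is lower with LX-A1656 than with either other gapmer.

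The effect of LX-A1656 against PBS was also set against its effect at 72 h, with the PBS group of that time. The difference between the effects was called for 3808 genes (30.1%), 1774 with a higher effect at 168 h (14.0%) and 2034 with a lower effect (16.1%), or 2511 and 1181 with totals alone. Scarb1 was closer to its PBS level at 168 h: it stood at 4.42 ± 1.23 CPM at 72 h, against 304 ± 9.01 in PBS, and the effect was higher at 168 h by 1.80 ± 0.315 (adjusted p = 1.63e-05). The lowest differences were in hepatocyte genes. Slco1a1 was 287 ± 91.3 CPM with LX-A1656 at 72 h and 1.40 ± 0.492 at 168 h, and its effect was lower (-7.72 ± 0.559; adjusted p = 2.50e-14). Car3 went from 1899 ± 809.7 to 11.3 ± 3.80 CPM (-7.58 ± 0.302), Hsd3b5 from 75.0 ± 57.6 to 0.346 ± 0.0815 (-7.51 ± 0.709) and Mup21 from 40.5 ± 7.72 to 0.245 ± 0.185 (-7.03 ± 0.680).

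At the high end H19 had 1 count in the LX-A1656 group at 72 h and 3707 at 168 h, Fam107a had 0 and 1120, Cacna1b had 3 and 711, and Tpsab1 had 15 and 7371, so no fitted fold is given for the first 3. Tpsab1 was higher at 168 h by 9.60 ± 1.59 (adjusted p = 7.52e-06). Fetal genes had a higher effect at 168 h in 12 of 24 cases, with Afp at 7.24 ± 2.18 CPM at 72 h (6.94 ± 0.604). Stellate cell markers did so in 15 of 17, with Pdgfra at 5.62 ± 0.385 CPM at 72 h, against 4.61 ± 0.908 in PBS (3.10 ± 0.275). Matrix genes did so in 20 of 36 cases, lipid-associated macrophage markers in 8 of 11, Kupffer cell markers in 8 of 11 and cell cycle genes in 11 of 37, the last in 5 without the 3 libraries low in Neat1. The difference was 2.50 ± 0.456 for Ccna2 and 2.80 ± 0.890 for Trem2, the latter not called without PBS 72 h replicate 2, which gave 1.81.

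Other lists had lower effects at 168 h than at 72 h. Interferon genes had a lower effect at 168 h in 19 of 36 cases and a higher effect in 3. Igtp was 111 ± 9.45 CPM with LX-A1656 at 72 h, against 43.0 ± 7.33 in PBS of that time, and its effect was lower at 168 h (-3.52 ± 0.254; adjusted p = 9.90e-15). NRF2 targets were lower in 15 of 23, with Gstm1 at -2.67 ± 0.254, and sterol synthesis genes in 11 of 20, with Sc5d at 369.7 ± 121 CPM at 72 h and a difference of -2.02 ± 0.274. The effect on Rsad2 was lower (-1.30 ± 0.390; adjusted p = 0.00914), a call lost without PBS replicate 4. Sqle (-1.35 ± 0.538) and Ccl2 (0.73 ± 0.746) did not pass the test of the difference. For p53 targets 4 were higher and 2 lower of 27, against 14.0% and 16.1% of all genes. Of 7 neutrophil markers 0 were called by edgeR, with 2 higher at an unadjusted p under 0.05 and 1 higher by DESeq2.

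**Figure D5:**
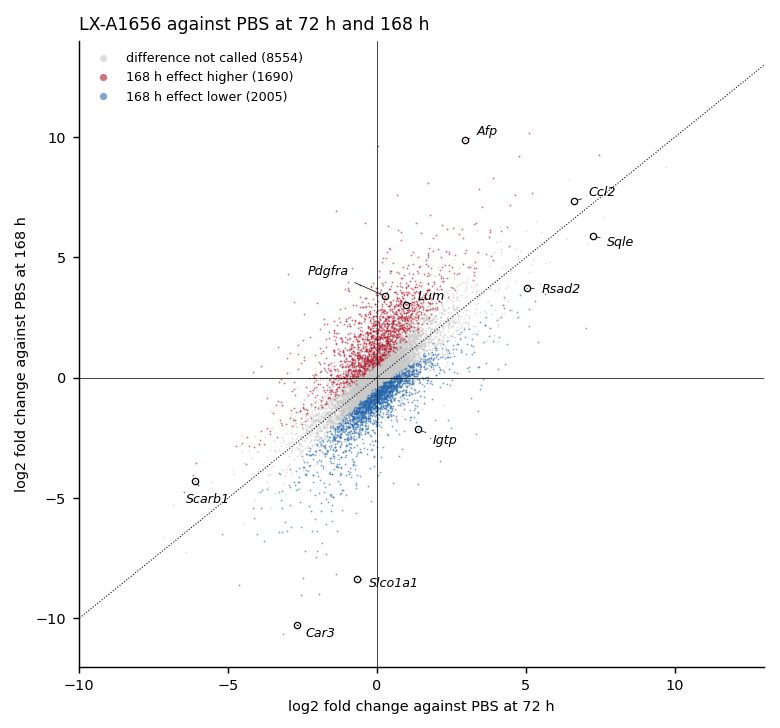
Log2 fold change of LX-A1656 against PBS at 72 h (horizontal axis) and 168 h (vertical axis) for the 12249 genes whose mean reached 0.1 CPM in all 4 groups; colour marks genes whose effect differed between the times with adjusted p under 0.05, and the dotted line marks equal effects. Car3 and Slco1a1 lie far under the line, Afp and Pdgfra over it, and Scarb1 lies over it at the lower left.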

How the data were processed

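Per the labels' protocols, liver RNA was made into libraries with the Ion AmpliSeq Transcriptome mouse kit. The authors deposited raw counts per gene target, which are whole numbers. Aligner, genome build, strand and filters were not given in the sources used here. The 8 libraries compared held 8239431 to 13216851 counts (median 10222330). All 48 libraries, in 12 groups, were fitted together in R 4.3.3 with edgeR 4.0.16 (TMM factors, filterByExpr, robust quasi-likelihood F test, 12 group means), and Benjamini-Hochberg adjustment was made over 12672 genes, which held at least 99.891% of the counts of each library. A gene with an adjusted p under 0.05 was called. DESeq2 1.42.0 was an alternative. The code was tested on simulated counts. Levels are CPM on TMM-scaled totals. A group with 0 counts was set to a floor of 3 counts over the group, and 1 to 3 counts gave a ratio with an exact 95% Clopper-Pearson interval. The genes and 52 lists were chosen with earlier results of these data known. Genes named are Scarb1, the 15 highest and 15 lowest called fold changes that averaged at least 10 CPM in a group with groups that do not overlap, up to 6 members of each list with the smallest p, up to 4 called against its majority and up to 3 not called, and the 4 highest and 4 lowest of each other comparison. A few genes that this rule names are not reported here.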

Additional observations from a re-analysis of the deposited data

Results flagged for a closer look

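Within each group of 4 libraries a value was marked where its gap to the nearest of the other libraries, divided by the range of the group, was above Dixon's 95% critical value. Among 546 sets of 4 values examined, 42 (7.69%) had such a library. In 7 of these the other 3 libraries were at 0, so any count marks the library by construction, and of the other 539 sets 35 (6.49%) had one, where chance gives about 1 in 20. The 42 were 20 in the LX-A1656 group and 22 in the PBS group. Levels below are in CPM, with the range of the other 3 libraries in brackets.

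LX-A1656 replicate 1 was high for Alas2 at 34.9 (25.4 to 26.2) and Irf7 at 111 (84.9 to 87.5). LX-A1656 replicate 1 was low for Ahr at 102 (133 to 136), F9 at 55.1 (101 to 105), Fos at 22.1 (27.9 to 28.9), Igfbp1 at 1115 (1737 to 1821) and Slco1a1 at 0.668 (1.58 to 1.69). LX-A1656 replicate 2 was high for Cyp2c29 at 44.9 (22.6 to 24.8). LX-A1656 replicate 2 was low for Ccnd1 at 17.9 (34.5 to 37.7). LX-A1656 replicate 3 was high for Hsd3b5 at 0.467 (0.297 to 0.322) and LOC108167326 at 0.0584 (0). LX-A1656 replicate 3 was low for Fosl1 at 14.5 (20.6 to 21.3). LX-A1656 replicate 4 was high for Cebpa at 186 (89.7 to 106), Id1 at 231 (116 to 120.4), Lrat at 45.9 (30.2 to 31.3), Lum at 53.3 (23.0 to 26.3), Mcm5 at 10.6 (5.84 to 6.27), Npy at 478 (207 to 246) and Shmt2 at 183 (109 to 119). LX-A1656 replicate 4 was low for Stab2 at 6.68 (9.07 to 9.40).

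PBS replicate 1 was high for Car3 at 15517 (13344 to 13534), Cib3 at 0.628 (0.254 to 0.310), Cxcl9 at 22.4 (10.8 to 12.6), Mcm5 at 7.16 (3.52 to 3.94) and Mmp7 at 0.126 (0). PBS replicate 1 was low for Cpt1a at 319 (375 to 386) and Tnfaip3 at 0.628 (1.48 to 1.66). PBS replicate 2 was high for 2010109I03Rik at 0.103 (0) and Cidea at 0.310 (0). PBS replicate 3 was high for Elovl3 at 2139 (1500.4 to 1582), Gpnmb at 0.135 (0), Gsdmd at 53.8 (34.9 to 35.7) and Pck1 at 2776 (782 to 1122). PBS replicate 3 was low for Hsd3b5 at 241 (683 to 718), Rgn at 1593 (2348 to 2488) and Sc5d at 269 (286 to 287). PBS replicate 4 was high for Fam107a at 0.127 (0) and Krt20 at 0.254 (0). PBS replicate 4 was low for Cry1 at 4.82 (9.17 to 9.42), Ier2 at 25.3 (33.6 to 34.7), Slc2a2 at 295 (347 to 353) and Soat1 at 3.30 (3.90 to 3.93).

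The effect of LX-A1656 against PBS differed between 168 h and 72 h for 3808 genes by the edgeR test of the difference. Among the genes described above it was higher at 168 h, in log2 units, for Afp (6.94), Ccna2 (2.50), Pdgfra (3.10), Scarb1 (1.80), Tpsab1 (9.60) and Trem2 (2.80). It was lower for Car3 (-7.58), Gstm1 (-2.67), Hsd3b5 (-7.51), Igtp (-3.52), Mup21 (-7.03), Rsad2 (-1.30), Sc5d (-2.02) and Slco1a1 (-7.72).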

How the results depend on the processing

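Alternatives were DESeq2 size factors, library totals alone, no filter on low counts, the DESeq2 test, a fit of only the libraries compared, a replicate block, and leaving out each library in turn. Leaving out the 3 libraries low in Neat1 was added after the data were seen. Calls against PBS ranged from 7123 to 8772 over these, and from 7760 to 7907 when 1 library was left out (4132 to 4234 higher, 3628 to 3682 lower, 5125 to 5228 of at least 2-fold). Library totals alone gave 2303 lower genes in place of 3766, and Abcg5 then had a positive log2 fold change of 0.41. Scarb1 stayed lower in all of them, at -4.31 to -3.82 on the log2 scale, and at -4.42 to -4.16 with 1 library left out. Against LX-A3928 the fit of only those 8 libraries gave 2870 genes in place of 5278. Leaving out 1 library gave 4683 to 5282 genes there, 3362 to 4596 against LX-A2003 and 3468 to 3874 for the difference between times. Of 271 genes named against PBS, 3 lost and 11 gained a call in at least 1 fit with a library left out, and 3 and 18 with totals alone. The DESeq2 test lost Crct1, which has 0 PBS counts. The replicate block gave 8036 genes in place of 8092. Libraries with the same replicate number had correlations of -0.18, 0.26, -0.23 and -0.35, within the -0.41 to 0.45 of libraries with different numbers, so the numbers are not treated as pairs. Within groups some libraries were more alike. Chi-square per degree of freedom was 6.61 for PBS replicates 2 and 4, and 28.0 to 43.7 for other PBS pairs. It was 10.0 for LX-A1656 replicates 2 and 3, and 25.3 to 48.1 for other pairs of that group. The reason was not tested. Depth limits genes of a few counts per group, given as ratios or bounds.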
